A study of Mus musculus with 118 samples.

Results

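Intergenic RING1B sites without SUZ12 or PCGF2 are RING1B peaks whose midpoints lie outside curated RefSeq transcripts and that share no base with peaks of 2 other Polycomb proteins. They were chosen by measured values, from the deposited peak lists of untreated mouse embryonic stem cells (ESCs). A peak was a member if it was under 3000 bp, overlapped no SUZ12 peak, no PCGF2 peak and no promoter, and had its midpoint outside every curated RefSeq transcript. A promoter was a curated transcription start site (TSS) plus or minus 2500 bp. Of 18643 RING1B peaks, 2979 were members.

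The lists come from a series of 118 calibrated ChIP-seq samples in 42 groups, made to ask what the catalytic activity of the Polycomb repressive complex PRC1 contributes to Polycomb function. The PRC1CPM line, clone 41, has 3 untreated samples for each of RING1B, SUZ12 and PCGF2. It is a line in which Ring1a carries I50A/D53K and the floxed Ring1b allele can be switched from wild type to I53A/D56K. Another 3 untreated SUZ12 samples are of the PRC1CKO line, clone B9, which is Ring1a-/- with Ring1b fl/fl. Both lines are E14 ESCs with Rosa26::ERT2-Cre, grown in serum with leukaemia inhibitory factor, and each is 1 clone. Neither line has active RING1A even untreated. Cells treated with 800 nM tamoxifen for 72 hours were not analysed here, and the RING1B data in PRC1CKO cells that the authors also used come from outside the 118 samples. The lists hold positions without heights or replicates, so the depth behind a peak is unknown. Every interval printed covers only the sampling of peaks or genes and treats them as independent, which neighbouring peaks are not.

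RING1B is the E3 ligase core of PRC1, which places ubiquitin on histone H2A, and SUZ12 is a core subunit of PRC2, which methylates histone H3 on lysine 27. Canonical PRC1 holds PCGF2 or PCGF4 and recognises the PRC2 mark, whereas variant PRC1 complexes hold RYBP or YAF2 and reach chromatin by other routes. KDM2B brings the PCGF1 complex to unmethylated CpG islands, and the PCGF6 complex holds the DNA-binding factors MGA, MAX and E2F6. Intergenic DNA also holds enhancers, the distal elements from which transcription factors act on promoters.

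Reference sequences of the central 300 bp of 8 members show the range of DNA that the rule collects, with 4 sites near pluripotency genes, 3 of the members highest in central CpG observed/expected and the site farthest from a curated TSS. They are RefSeq sequences of GRCm38.p6, the assembly of mm10, on the forward strand, and were not read from these cells. Capitals mark every CG, except near Il6st, where they mark the E-box CACGTG, and near Mycn, where they mark the E2F motif TCCCGC. The Mycn site lies 35953 bp from Mycn, and its nearest curated TSS is that of Gm40271, at 4.395 kb.
Nanog, upstream, chr6:122702621-122702920: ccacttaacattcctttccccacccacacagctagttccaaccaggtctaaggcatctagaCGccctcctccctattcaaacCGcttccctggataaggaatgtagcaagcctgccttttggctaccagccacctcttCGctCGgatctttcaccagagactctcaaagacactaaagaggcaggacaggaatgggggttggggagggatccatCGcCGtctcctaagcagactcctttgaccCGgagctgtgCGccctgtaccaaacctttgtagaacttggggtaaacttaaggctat
Klf2, downstream, chr8:72323251-72323550: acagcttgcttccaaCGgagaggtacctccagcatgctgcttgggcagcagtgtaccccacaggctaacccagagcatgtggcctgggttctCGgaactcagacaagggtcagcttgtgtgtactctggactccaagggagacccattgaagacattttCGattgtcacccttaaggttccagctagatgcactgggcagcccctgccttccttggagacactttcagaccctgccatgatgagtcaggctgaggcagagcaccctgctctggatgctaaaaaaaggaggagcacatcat
Il6st, upstream, chr13:112439433-112439732: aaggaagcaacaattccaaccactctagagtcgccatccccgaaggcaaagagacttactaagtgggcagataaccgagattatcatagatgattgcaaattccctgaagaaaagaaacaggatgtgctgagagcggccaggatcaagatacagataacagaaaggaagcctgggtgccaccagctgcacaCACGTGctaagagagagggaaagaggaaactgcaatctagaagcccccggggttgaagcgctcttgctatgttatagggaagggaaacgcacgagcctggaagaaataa
Mycn, chr12:12904873-12905172: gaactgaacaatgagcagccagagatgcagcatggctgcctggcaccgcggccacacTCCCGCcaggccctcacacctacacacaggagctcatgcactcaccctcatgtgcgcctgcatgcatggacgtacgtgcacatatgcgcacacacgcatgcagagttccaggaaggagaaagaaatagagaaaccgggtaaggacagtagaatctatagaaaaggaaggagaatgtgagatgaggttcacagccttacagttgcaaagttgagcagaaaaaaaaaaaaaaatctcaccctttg
Meg3, upstream, chr12:109528213-109528512: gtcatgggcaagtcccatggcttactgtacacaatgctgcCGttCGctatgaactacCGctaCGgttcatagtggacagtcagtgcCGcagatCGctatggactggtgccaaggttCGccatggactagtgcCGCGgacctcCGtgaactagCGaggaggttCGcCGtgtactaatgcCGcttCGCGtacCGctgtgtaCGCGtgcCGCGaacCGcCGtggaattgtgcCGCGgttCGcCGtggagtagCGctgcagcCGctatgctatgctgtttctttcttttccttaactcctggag
tRNA cluster, chr13:23518032-23518331: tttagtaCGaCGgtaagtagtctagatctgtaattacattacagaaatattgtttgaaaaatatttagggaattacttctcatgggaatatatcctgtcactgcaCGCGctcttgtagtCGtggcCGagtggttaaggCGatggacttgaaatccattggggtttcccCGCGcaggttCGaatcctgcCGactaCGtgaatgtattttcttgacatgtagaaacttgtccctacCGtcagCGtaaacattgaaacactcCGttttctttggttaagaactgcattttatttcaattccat
Arhgap5, upstream, chr12:52503766-52504065: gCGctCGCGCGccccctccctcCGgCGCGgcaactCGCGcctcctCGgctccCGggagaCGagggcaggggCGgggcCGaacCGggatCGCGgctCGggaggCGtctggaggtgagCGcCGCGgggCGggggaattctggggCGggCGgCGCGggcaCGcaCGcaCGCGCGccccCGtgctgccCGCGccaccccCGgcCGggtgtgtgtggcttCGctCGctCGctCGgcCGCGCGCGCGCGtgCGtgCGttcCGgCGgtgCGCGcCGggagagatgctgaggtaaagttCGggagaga
Cdh20, farthest from a TSS, chr1:103117937-103118236: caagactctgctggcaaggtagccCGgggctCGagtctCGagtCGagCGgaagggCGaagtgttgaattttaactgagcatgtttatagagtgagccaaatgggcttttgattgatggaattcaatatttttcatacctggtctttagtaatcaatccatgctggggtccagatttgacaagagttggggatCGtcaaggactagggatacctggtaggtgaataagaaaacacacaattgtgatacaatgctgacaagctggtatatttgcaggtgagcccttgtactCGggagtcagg
The Klf2 sequence holds 3 CG dinucleotides in 300 bp, the Nanog sequence 8, the Meg3 sequence 29 and the Arhgap5 sequence 55. These centres therefore range from CpG-poor DNA to DNA as dense in CpG as an island.

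Most members were narrow and CpG-poor beside promoter sites, yet CpG-rich beside the genome. Member width had a median of 950 bp with a middle range of 593 to 1464 bp, and the narrowest was 186 bp. The members just under the limit were 2997, 2994 and 2993 bp wide, and the otherwise alike peaks just above it were 3002, 3010 and 3017 bp wide. CpG observed/expected, the count of CpG divided by that predicted from the C and G content, had a median of 0.339 in the central 1 kb (95% interval 0.333 to 0.344, n = 2979). The median over all sequenced 1 kb windows of the genome was 0.158. Over the 1545509 windows that meet the same intergenic and promoter rule it was 0.144. Across members it ran from 0.018 to 1.11.

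The comparison with 450 intergenic peaks that did hold SUZ12 asked whether SUZ12 marks a different kind of intergenic DNA. SUZ12-positive intergenic peaks, also under 3000 bp and without PCGF2, had a median CpG observed/expected of 0.482, so that members were different by -0.144 (95% Price-Bonett interval -0.158 to -0.130). Members were lower on 19 of 19 autosomes. A CpG-rich centre, defined as CpG observed/expected of at least 0.6 with at least 50% GC in 1 kb, was found in 127 of 2979 members, or 4.26% (95% Wilson interval 3.60 to 5.05). The share over all RING1B peaks was 46.3%, and 0.612% of all genome windows passed. SUZ12-positive intergenic peaks passed in 16.9% and promoter peaks without SUZ12 or PCGF2 in 69.8%. The difference between members and SUZ12-positive intergenic peaks was -12.6 percentage points (95% Newcombe interval -16.4 to -9.35).

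Intragenic peaks, the 1872 peaks that passed the same rule except that their midpoint fell inside a curated transcript, were close to the members in CpG content. Their median CpG observed/expected was 0.349, which exceeded that of members by a margin of only 0.011 (member minus intragenic, 95% interval -0.019 to -0.0021). The interval reached 0 with promoters of 5 kb on each side, at a difference of -0.0058. CpG-rich centres made up 4.01% of intragenic peaks, and the difference of 0.257 points had an interval of -0.935 to 1.38 in the 1 kb window. In the central 300 bp the direction turned, at -3.57 points (-5.44 to -1.77).

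**Figure D1:**
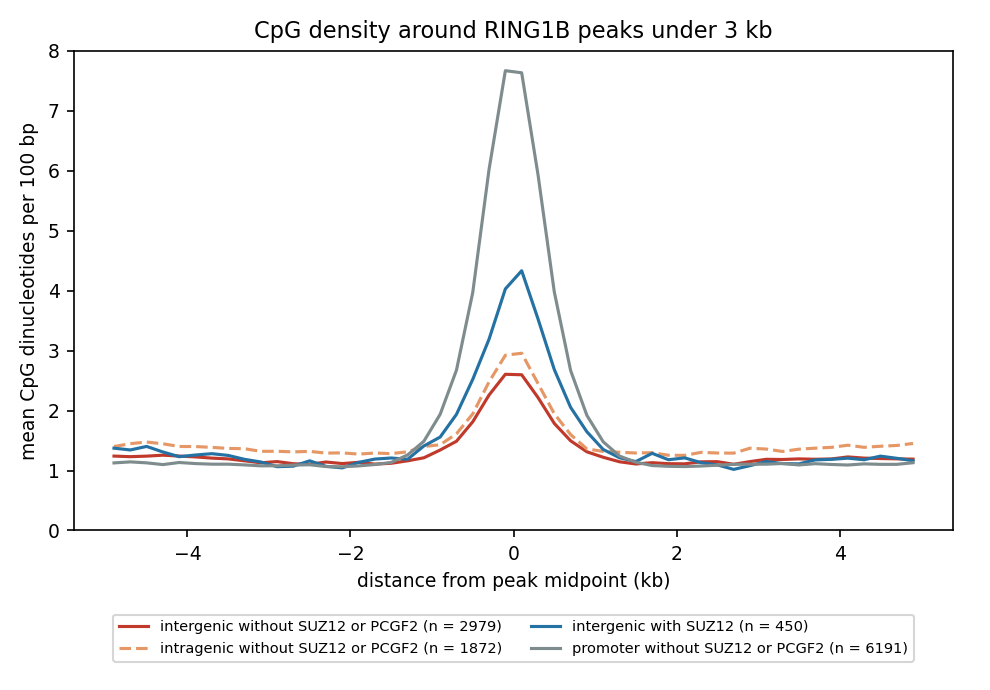
Mean CpG dinucleotides per 100 bp, in bins of 200 bp, by distance in kb from the peak midpoint, with a line for each of 4 groups of RING1B peaks under 3000 bp. Members reach 2.61 CpG per 100 bp at the centre against 4.33 for SUZ12-positive intergenic peaks and 7.67 for promoter peaks, and all 4 groups return to between 1 and 2 per 100 bp at the edges.

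Around the midpoint, members held 2.61 CpG per 100 bp, compared with 1.24 at 4900 bp upstream on the reference. Promoter peaks without SUZ12 or PCGF2 held 7.67 at the centre, and SUZ12-positive intergenic peaks up to 4.33. The plot of CpG density by distance shows that the rise at members is lower than that at the other groups and falls back to their level at the edges.

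Members differed among themselves by CpG content. The 127 CpG-rich members had a median width of 1271 bp, 338 bp above the other 2852 (95% interval 204 to 472). They were also nearer to a curated TSS, with a median distance of 14933 bp against 24425 bp. A TSS of the GENCODE vM21 annotation lay within 500 bp of 41.7% of them, compared with 9.54% of the others, a difference of 32.2 points (23.9 to 41.0). Their nearest gene held SUZ12 at a promoter less often, 19.7% against 35.8% (difference -16.1 points, -22.3 to -8.13).

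The 5 members with the highest CpG observed/expected in the central 300 bp, among those with under 20% repeat there, lay at separate loci. The highest, at 1.21, is the peak chr13:23517265-23519098, which covers or touches 4 tRNA genes: n-TGgcc6, n-TMcat6, n-TStga1 and n-TQttg4, for tRNA-Gly, tRNA-Met, tRNA-Ser and tRNA-Gln. The next, at 1.197, lies 12.2 kb upstream of Arhgap5 and coincides with TSSs of predicted RefSeq and GENCODE transcripts. A peak 23.1 kb upstream of Twist2, a basic helix-loop-helix factor gene, reached 1.18. The peak at chr12:109527592-109529132, at 1.16, lies 12.6 kb upstream of Meg3, a maternally expressed imprinted RNA gene, on the side of Dlk1, where the imprinting control region of this domain is known to lie. The last, at 1.15, lies 65.0 kb upstream of Cr2, a complement receptor gene. Allele-specific signal was not analysed here.

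tRNA genes are short genes with promoters inside their transcribed part, and the transcripts used in the rule do not include them. They were looked up after the CpG-richest member had been seen, and that member is counted here. Of 403 tRNA genes on the main chromosomes in RefSeq, 47 were overlapped by members, and 127 by any RING1B peak. Conversely, 34 of 2979 members held a tRNA gene, or 1.14% (95% Wilson interval 0.818 to 1.59), compared with 0.483% of all RING1B peaks. Intragenic peaks held one in 2 of 1872, 1.03 points fewer than members (0.606 to 1.49). How many tRNA genes lie inside curated transcripts was not counted, so this difference takes no account of where tRNA genes lie. Promoter peaks without SUZ12 or PCGF2 held one in 0.275%, and SUZ12-positive intergenic peaks in 1.56%, so the latter were not separated from members (difference -0.414 points, -2.07 to 0.503). The 34 tRNA members had a median width of 1592 bp and a median CpG observed/expected of 0.688 in 1 kb. Of these, 11 lay between 21 and 24 Mb of chromosome 13, and the 34 were spread over 13 chromosomes.

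Among DNA motifs, the E-box was more frequent in members than in intergenic peaks with SUZ12. The letters CACGTG, the palindrome bound by MAX with MYC or MGA, occurred in the central 300 bp of 396 of 2979 members, or 13.3% (95% Wilson interval 12.1 to 14.6), as in the Il6st sequence above. The share was 9.69% over all RING1B peaks and 2.88% over all 300 bp windows of the genome. SUZ12-positive intergenic peaks held it in 26 of 450, or 5.78%, although their CpG content was higher. The difference was 7.52 points (95% Newcombe interval 4.71 to 9.72). Promoter peaks held it in 10.9%, 2.44 points fewer than members (1.02 to 3.91). Intragenic peaks were at 14.7%, and the difference of -1.40 points had an interval that covers 0 (-3.44 to 0.590). A match describes the letters and not a bound factor.

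**Figure D2:**
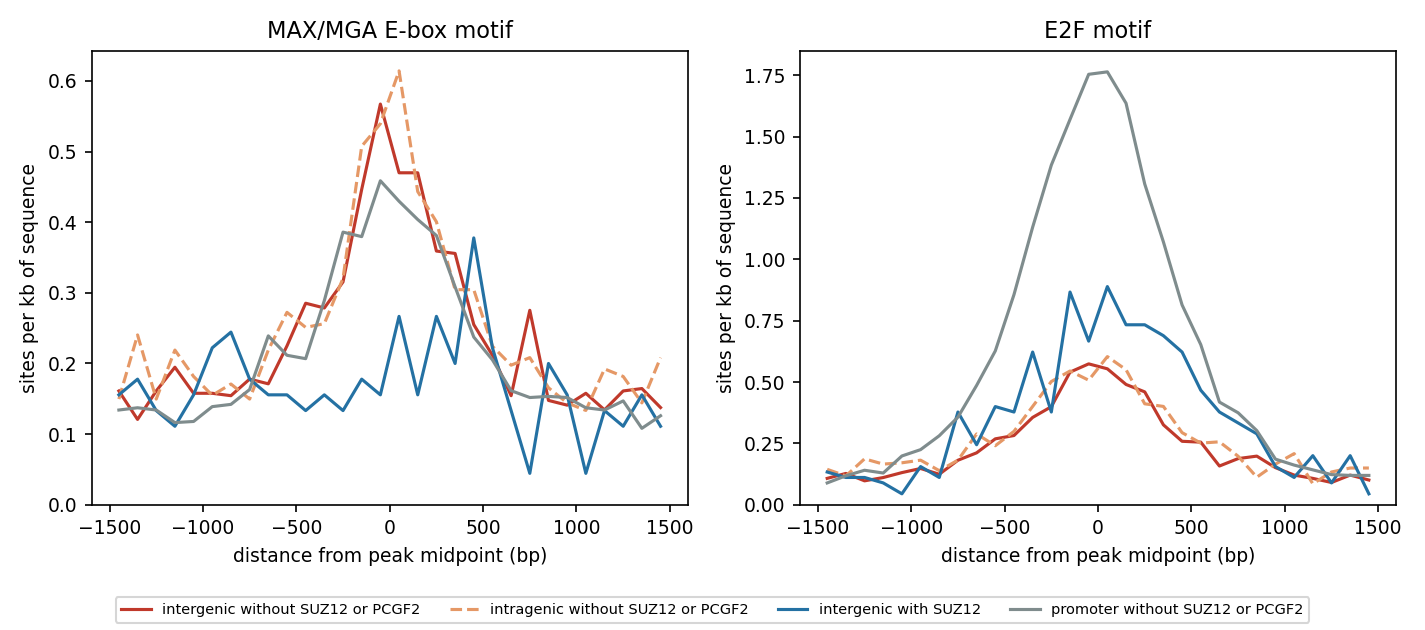
Sites per kb of sequence of the MAX/MGA E-box (left) and of the E2F motif (right), in bins of 100 bp, by distance in bp from the peak midpoint, with a line for each of 4 groups of RING1B peaks under 3000 bp. The E-box line of members rises to 0.567 per kb at the midpoint while that of SUZ12-positive intergenic peaks lies at 0.156 and 0.267 per kb there, and the E2F line is highest at promoter peaks, at 1.76 per kb.

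The E-box was concentrated at the middle of the members. In the 100 bp just left of the midpoint there were 169 sites in 2979 members, or 0.567 per kb, compared with 0.161 per kb in the bin centred 1450 bp to the left. SUZ12-positive intergenic peaks had 0.156 per kb in both of these bins, from 7 sites each. In the plot of sites by distance, members, intragenic and promoter peaks all rise toward the midpoint, and the 450 SUZ12-positive intergenic peaks vary between 0.044 and 0.378 per kb over the whole span.

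Since CpG-rich DNA holds more of any CpG-containing word, all 2080 hexamers, each counted with its reverse complement, were compared after the E-box result was known. Among the 553 hexamers with 1 CG, the ratio of the member share to the share of intergenic 300 bp windows had a median of 3.11 and a highest value of 11.9. CACGTG had a ratio of 5.30 and ranked at 81 of them, so the E-box was not outstanding among words with a CG. By contrast, in the difference between members and SUZ12-positive intergenic peaks it ranked at 8 of 2080, and the 7 above it hold no CG. In the flanking bases, CCACGTGG made up 76 of 432 sites in members with both flanks in the window, or 17.6%, compared with 9.24% of 267819 CACGTG sites in the genome. CCACGTGC made up 16.4% against 10.3%, and ACACGTGA 5.79% against 12.4%.

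Members with and without the E-box were not separated in width or distance. Their median widths were 898 and 957 bp (difference -59.0 bp, 95% interval -152 to 33.9), and their median distances to a TSS 24405 and 24004 bp. The E2F motif TCCCGC stood beside the E-box in 65 of 396 members, or 16.4%, and in 13.9% of members without it (difference 2.52 points, -1.09 to 6.69). By contrast, the KLF form GGGCGTGG was at 5.05% of members with the E-box and 1.74% without (difference 3.31 points, 1.46 to 5.97). The SOX motif ACAATGG was less frequent with the E-box, at 2.02% against 5.03% (difference -3.01 points, -4.36 to -0.946). For each of the remaining motifs, the interval held both negative and positive differences.

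The E2F motif was less frequent in members than at promoters. It occurred in 424 members, or 14.2%, compared with 14.3% of intragenic peaks, 19.6% of SUZ12-positive intergenic peaks, 38.4% of promoter peaks and 2.09% of genome windows. The share over all RING1B peaks was 28.9%. Members minus promoter peaks came to -24.2 points (-25.9 to -22.4). CpG-rich members held it in 37.0%, and the others in 13.2%.

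Motifs of factors that act at ESC enhancers gave a mixed picture. The ESRRB motif TCAAGGTCA occurred in 45 members, or 1.51% (95% Wilson interval 1.13 to 2.02), against 0.629% of genome windows and 0.646% of promoter peaks, 0.865 points fewer than members (0.419 to 1.40). It was at 1.07% of intragenic peaks, and that difference of 0.442 points was not separated from 0 (-0.248 to 1.07). The KLF form GGGTGTGG occurred in 4.83% of members, 2.22% of SUZ12-positive intergenic peaks (difference 2.61 points, 0.657 to 3.92) and 1.76% of genome windows. The KLF form GGGCGTGG, in turn, was at 2.18% of members and 3.53% of intragenic peaks (difference -1.34 points, -2.39 to -0.394). The OCT4 octamer ATGCAAAT was at 2.25% of members and 2.61% of genome windows, and the SOX motif ACAATGG at 4.63% and 5.25%. Both were lower still at promoter peaks, at 0.711% and 1.45%. Of all RING1B peaks, 0.73% held the ESRRB motif, 3.64% GGGTGTGG, 4.70% GGGCGTGG, 1.14% the octamer and 2.41% the SOX motif. Members were above each of these shares except that of GGGCGTGG, which was at 0.66% of genome windows. A total of 15 motifs were searched on both strands, and none holds another within it, although matches can share end bases. The others, with the member share and the genome share, were ETS ACCGGAAG at 1.11% and 0.234%, NRF1 GCGCATGCG at 0.537% and 0.044%, YY1 AAGATGGCG at 0.470% and 0.302%, and RUNX TGTGGTTT at 1.68% and 2.65%. A piece of the CTCF motif, AGGGGGCGC, was at 0.537% and 0.057%, and a piece of the REST motif, GGACAGCG, at 0.638% and 0.215%. TEAD GGAATG was at 16.4% and 15.9%, and NFY CCAAT at 30.7% and 40.8%. Over all RING1B peaks, ETS was at 1.80%, NRF1 at 1.08%, YY1 at 1.10%, the CTCF piece at 1.28% and the REST piece at 2.05%. Members were below each of these, and these words hold a CG, for which the genome share makes no allowance. RUNX, TEAD and NFY, whose words hold no CG, were at 1.105%, 12.6% and 25.9% of all RING1B peaks, below the members.

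**Figure D3:**
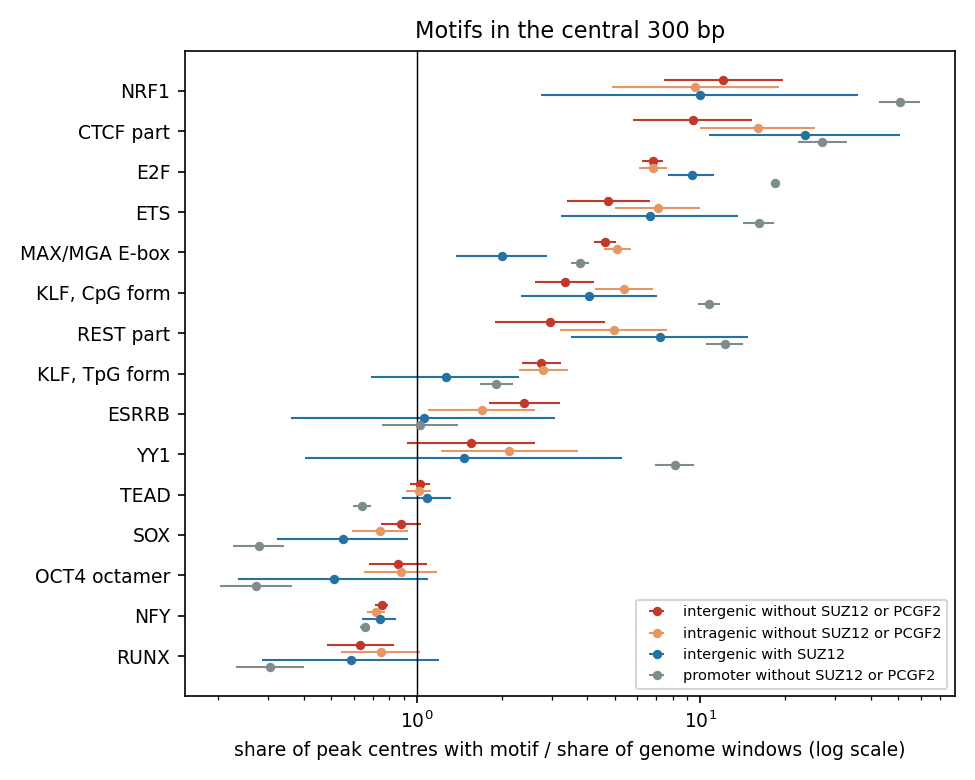
Share of peak centres (300 bp) with each of 15 motifs divided by the share of all 300 bp genome windows, on a log axis, with 95% Wilson intervals of the peak share for 4 groups of RING1B peaks. The E-box of members lies at 4.62 times the genome share and that of SUZ12-positive intergenic peaks at 2.01, and the OCT4 and SOX motifs of members lie just below 1.

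The position of members relative to genes was asked next. Members lay a median of 24006 bp from the nearest curated TSS, the nearest at 2814 bp and the farthest at 1650434 bp. Intergenic 1 kb windows of the genome lay a median of 96279 bp away. Of 2979 members, 667 were within 10 kb, 1542 between 10 and 50 kb, 457 between 50 and 100 kb, 304 between 100 and 500 kb and 9 farther. The member was upstream of its nearest TSS in 1931 cases, or 64.8%, while 57.5% of intergenic windows were.

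Annotation beyond curated RefSeq covered a part of the members. A predicted RefSeq TSS lay within 500 bp of 10.6%, compared with 15.6% of SUZ12-positive intergenic peaks (difference -4.95 points, -8.74 to -1.68). A GENCODE TSS was within 500 bp of 10.9%, compared with 69.3% of all RING1B peaks and 27.1% of SUZ12-positive intergenic peaks (difference -16.2 points, -20.6 to -12.1). The rule leaves out peaks at curated promoters, and promoter peaks without SUZ12 or PCGF2 had a GENCODE TSS that near in 95.8%. The gap between members and all RING1B peaks was therefore largely set by the rule. The midpoint fell inside a predicted RefSeq transcript in 22.2% and a GENCODE transcript in 18.2%. Some 1899 members, or 63.7%, met none of these and no pseudogene.

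RefSeq also lists experimentally tested enhancers, most of them VISTA elements assayed in transgenic mouse embryos. Of 2979 members, 51 overlapped one, or 1.71% (95% Wilson interval 1.31 to 2.24), against 0.96% of all RING1B peaks, and 48 of these held a VISTA element. Promoter peaks without SUZ12 or PCGF2 overlapped one in 0.194%, intragenic peaks in 1.34% and SUZ12-positive intergenic peaks in 3.56%. Members minus SUZ12-positive intergenic peaks came to -1.84 points (-4.02 to -0.388), and members minus intragenic peaks to 0.377 points (-0.373 to 1.06). The examples named here were chosen after their values were seen, apart from Nanog. The members include the peak chr6:122702393-122703147, 4.72 kb upstream of Nanog, whose central sequence is shown above and which overlaps a 404 nt enhancer fragment. Others lie 18.2 kb upstream of Fos and 10.2 kb upstream of Fosb, which encode immediate-early AP-1 factors. A member 7.55 kb upstream of Fgf15, near Fgf4, and one 24.6 kb downstream of Wnt10a, a Wnt ligand gene, also overlap a listed enhancer. Only 1015 enhancers are annotated, so the share says nothing about the remaining members.

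Pluripotency genes encode the factors and signals that keep ESCs undifferentiated. Of 36 listed pluripotency genes, 19 had a member within 50 kb of a TSS, or 52.8% (95% Wilson interval 37.0 to 68.0), while 14.8% of all 26180 curated genes did. Genes with RING1B but without SUZ12 at a promoter had a member that near in 19.6%, and genes with both in 17.2%. Within 20 kb the pluripotency count was 7 of 36, or 19.4%, against 6.47% of all genes, and within 100 kb 23 of 36, or 63.9%, against 25.9%. The interval of the list lies above the share of all genes at each of these limits. The list was drawn up with earlier results of these data known.

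By distance from a TSS to the edge of the nearest member, the closest were Fgf4 at 3034 bp, Klf2 at 3884 bp and Nanog at 4341 bp. Fgf4 encodes the growth factor that drives exit from pluripotency through ERK, Klf2 a naive-state Krüppel-like factor, and Nanog a homeodomain factor of the core circuit. Utf1 followed at 5698 bp, Lefty1 at 9764 bp and Sall4 at 12835 bp. Lefty1 and Lefty2, at 22331 bp, encode inhibitors of Nodal signalling, and Sall4 a zinc-finger partner of OCT4. The promoters of Nanog itself held no RING1B peak, while those of the other 18 of these 19 genes did. RING1B was at a promoter of 86.1% of the 36 listed genes and of 53.2% of all curated genes.

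Receptor and signalling genes of the LIF pathway were also in reach. A member lay 23141 bp from Il6st, which encodes the gp130 co-receptor, 47375 bp from Lifr, its partner receptor, and 43532 bp from Stat3, the transcription factor they activate. The member near Il6st holds an E-box, as printed above. Klf5 had one at 31272 bp, Mycn at 35953 bp, Tcl1 at 36277 bp, Dppa3 at 40759 bp and Sox2 at 41671 bp. Prdm14, Otx2 and Tbx3, whose promoters held RING1B, SUZ12 and PCGF2, had members at 21408, 36213 and 38228 bp. Klf4 lay just past the limit, at 51796 bp, and Pou5f1 at 81787 bp. Esrrb, at 143778 bp, and Tdgf1, at 142740 bp, had none near.

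The members named for these genes varied in CpG content. CpG observed/expected in 1 kb was 0.157 near Klf2, 0.169 near Lefty1, 0.197 near Fgf4, 0.233 near Otx2 and 0.375 near Nanog. It was higher near Utf1, at 0.661. The Fgf4 member, at chr7:144856299-144858351, lay 2.75 kb from a SUZ12 peak and the Klf2 member, at chr8:72322947-72323854, 2.55 kb, whereas the Nanog member was 73.2 kb and the Klf5 member 1093 kb from one. Sites near pluripotency genes thus lay both beside and far from listed SUZ12 peaks. Another gene had the nearest curated TSS for the members named for Utf1 (Mir7686), Lefty2 (Sde2), Mycn (Gm40271) and Tbx3 (Tbx3os2).

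**Figure D4:**
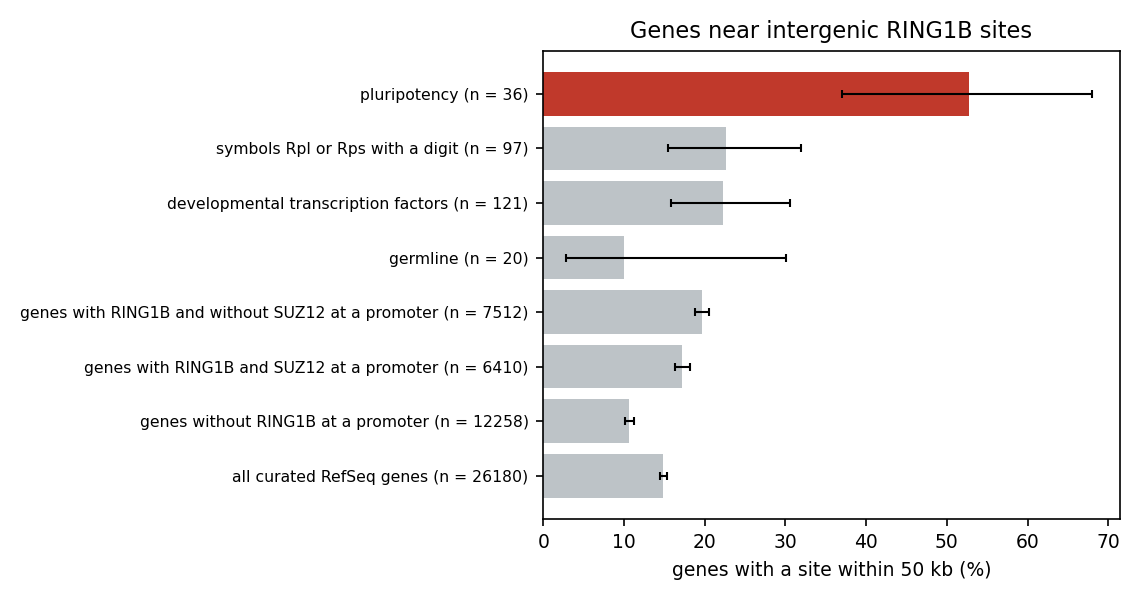
Percent of genes with an intergenic RING1B site within 50 kb of a TSS, for 4 listed gene groups and 4 classes of curated RefSeq genes, with n genes in brackets and 95% Wilson intervals as bars. Pluripotency genes stand at 52.8%, and the other groups at or below 22.7%.

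Within 50 kb, other gene lists were closer to the background. Genes whose symbol is Rpl or Rps followed by a digit, most of which encode ribosomal proteins, had a member within 50 kb in 22 of 97, or 22.7% (15.5 to 32.0). Without 11 of them that encode no ribosomal protein, the S6 kinase genes and Rps19bp1, the count was 19 of 86, or 22.1% (14.6 to 31.9), an alternative added after the values were seen. Developmental transcription factor genes such as the Hox, Pax and Gata families, of which 96.7% held SUZ12 at a promoter, had one in 27 of 121, or 22.3% (15.8 to 30.5). The interval of the developmental list lies above 14.8% and that of the 86 ribosomal genes does not, and genes of 1 cluster, such as Hoxb1, Hoxb2 and Hoxb3, can share a member. Germline genes had one in 2 of 20, an interval of 2.79 to 30.1% that does not separate them from all genes. Within 20 kb the developmental list stood at 8.26% (4.55 to 14.55) and the 97 Rpl or Rps genes at 13.4% (8.00 to 21.6). The share of all genes was 6.47%, and the pluripotency interval at 20 kb, 9.75 to 35.0%, overlaps both. Within 100 kb these 2 lists stood at 41.3% (32.95 to 50.23) and 35.05% (26.29 to 44.95), both above the 25.9% of all genes. Germline genes stood at 5% within 20 kb and 15% within 100 kb.

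The nearest gene usually carried RING1B itself. The gene of the nearest TSS held RING1B at a promoter for 2014 of 2979 members, or 67.6% (65.9 to 69.3), compared with 53.2% of all curated genes and 41.7% of intergenic windows. Intragenic peaks were at 70.6% (difference -3.01 points, -5.65 to -0.335), and with protein-coding genes alone this turned to 0.539 points (-1.82 to 2.95). SUZ12 was at a promoter of the nearest gene for 35.1% of members, 24.8% of all genes and 27.4% of intergenic windows. Intragenic peaks had it in 44.9%, a difference of -9.85 points for members minus intragenic (-12.7 to -7.01), and members were lower on 16 of 19 autosomes.

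Distance to SUZ12 was measured too. The nearest SUZ12 peak was a median of 56595 bp from members and 38044 bp from intragenic peaks, a difference of 18552 bp (95% interval 13854 to 23249). Even so, 239 members, or 8.02%, had a SUZ12 peak within 5 kb, and the closest lay 37.0 bp away. Those 239 were nearer to genes, with a median of 7484 bp to a TSS against 25554 bp for the others. They had a lower CpG observed/expected, at 0.303 against 0.342 (difference -0.039, -0.054 to -0.023), and E-boxes in 14.6% against 13.2% (difference 1.47 points, -2.67 to 6.66). The rule asked only that no base be shared.

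Members often had another RING1B peak nearby, as did the other peaks outside promoters. Another RING1B peak lay within 10 kb of 1319 members, or 44.3%, compared with 34.9% of all RING1B peaks. The share was 29.4% for promoter peaks without SUZ12 or PCGF2, 46.9% for SUZ12-positive intergenic peaks and 46.5% for intragenic peaks. The difference from intragenic peaks, -2.20 points, was not separated from 0 (-5.08 to 0.677). The nearest RING1B peak was another member for 1169, or 39.2%, although members make up 16.0% of the list. It was a peak with SUZ12 or PCGF2 for 907, or 30.4%, and these make up 38.1% of the list. A promoter peak without SUZ12 or PCGF2 was nearest for 24.7%, against 34.8% of the list. An intragenic peak was nearest for 108, or 3.63%, and these make up 10.0% of the list. Shares of the list take no account of position. Members lie outside genes and promoters by rule, so the list shares are not expected values for a neighbour. In all, 2026 intervals between genes held members, 583 held at least 2, and the fullest held 11.

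Genes with many members nearby were led by Foxl1, a forkhead factor gene of gut mesenchyme, with 9 members nearest to it. Irf2bp2, a corepressor gene, and Rybp, which encodes the variant PRC1 subunit itself, had 7 each. Ajap1, Enc1, Sik1 and 5830454E08Rik had 6 each. Those with 5 include Bmp7, a BMP ligand, Spry4, an inhibitor of FGF signalling, Tfap2c, a factor of trophoblast and germ cells, and Nfkbia, the inhibitor of NF-kappaB. Of the 17 genes with at least 5, all but Gm15326 held RING1B at a promoter, and those named here beyond Foxl1 were chosen after their values were seen. RING1B was at a promoter of 53.2% of all curated genes, and of the nearest gene for 67.6% of members. SUZ12 was at the promoters of Foxl1, Irf2bp2, Ajap1, Bmp7, Spry4 and Tfap2c, and was absent from the list at Rybp, Enc1, Sik1, Nfkbia and 5830454E08Rik. The nearest gene is a position and not a shown target.

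The fullest window of 1 Mb, from 121 to 122 Mb on chromosome 8, held 17 members among 31 RING1B peaks. Each of the 17 had its midpoint inside a GENCODE transcript, while 18.2% of all members did. The number of separate GENCODE transcripts behind this was not counted, and 1 transcript can cover several sites. The 17 were 421 to 2266 bp wide, with CpG observed/expected of 0.186 to 0.729, and 1 of 17 held an E-box. Of these, 9 were nearest to Foxl1, from 43.2 to 192 kb downstream, and the first, at chr8:121170264-121171409, overlaps a VISTA enhancer. The second window, from 117 to 118 Mb on chromosome 11, held 16 members among 50 RING1B peaks, including the widest member, 15.8 kb upstream of Tha1, and a peak 3.38 kb upstream of Socs3, the feedback inhibitor of the STAT3 pathway. CpG observed/expected there was 0.136 to 0.446.

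By chromosome, members per Mb of DNA outside transcripts and promoters ran from 1.15 on chromosome 3 to 4.33 on chromosome 11, with a median of 2.28 over 19 autosomes. The X was below every autosome, with 28 members or 0.240 per Mb, and the Y had 0. The X also held 275 RING1B peaks of all kinds, against at least 524 on each autosome, and members were 10.2% of them. The paper describes its ESCs as male, so the X and the Y are single-copy. The part of copy number in these counts was not tested.

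The 5 members farthest from any curated TSS were 295 to 846 bp wide. They lay 683 to 1650 kb away, near Cdh20, Pcdh9, Adgrl2, B230303A05Rik and Gm13793. The midpoint of that near Gm13793 fell inside a predicted RefSeq transcript. The farthest, near Cdh20, a cadherin gene, was 388 bp wide and 32.5% repeat sequence, and that near Gm13793 was 76.9% repeat. No member of the 5 held any of the 15 motifs in its central 300 bp. Nor did the members named near Fgf4, Klf2, Utf1, Prdm14, Otx2 and Tbx3, while the others named near pluripotency genes held at least 1. The share of all members without any of the 15 is not given here. The 5 widest members lay 9.76 to 148 kb from a curated TSS, near Tha1, Pard6b, Gm11691, Crb2 and Gm20110. That near Gm20110, at 148 kb, was within 500 bp of a predicted RefSeq TSS and of a GENCODE TSS.

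Repeat content separated members from intragenic peaks. The share of a peak in repeat sequence had a median of 12.8% for members and 8.92% for intragenic peaks, a difference of 3.90 points (95% interval 3.23 to 4.58) with members higher on 19 of 19 autosomes. It was 31.9% over intergenic windows, and no such share was computed for windows inside transcripts. The difference between members and intragenic peaks therefore takes no account of the repeat content of the DNA around them. The authors kept uniquely mapped reads, and the part of mapping in these shares was not tested. Members were also wider than intragenic peaks by 75 bp (35.1 to 115), with medians of 950 and 875 bp, in 15 of 19 autosomes.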

How the data were processed

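The values analysed were 3 lists of peak positions from untreated mouse ESCs, in base pairs on mm10, as the authors deposited them. According to their methods, the authors aligned reads with Bowtie 2, kept unique ones, used Sambamba to drop duplicates and MACS2, in its broad mode and with Input as control, to call peaks. RING1B and SUZ12 peaks come from merged replicates and were kept if found in both lines. RING1B peaks also had to lose signal on tamoxifen in PRC1CKO cells. PCGF2 peaks were those of all PRC1CPM replicates. The lists hold no heights or replicate values, so the depth behind each peak is unknown.

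Positions were compared with GRCm38.p6 and RefSeq, and 0 peaks ran past a chromosome end. Overlap meant at least 1 shared bp. Lower-case reference bases counted as repeat. Shares are given with 95% Wilson intervals, differences of shares with Newcombe intervals, and medians and their differences with Price-Bonett intervals. No p-value was computed, because peaks are not replicates. The groups, lists, tests and 118 alternatives were chosen with earlier results of these data known, and the tRNA, hexamer, flank and motif position counts, the splits within members and the intergenic windows were added after values were seen. Named members were the 5 widest, the 5 with the highest CpG observed/expected in the centre and the 5 farthest from a curated TSS. The rest were those nearest up to 15 pluripotency genes, those of the 2 fullest windows of 1 Mb and those beside the width limit. Code was tested on simulated data. The tools were SciPy 1.17.1, pandas 2.3.3, NumPy 2.4.6 and matplotlib 3.10.9 under Python 3.11.15. A named member is not reported here.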

Additional observations from a re-analysis of the deposited data

How the results depend on the processing

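Of 118 alternatives over 13 comparisons, 106 kept the direction and the side of 0 of the interval. These changed the promoter span, the transcripts used, the width limits, the distance to SUZ12, the chromosomes, the repeat content or the window. Members minus intragenic, CpG observed/expected moved to -0.0058 with promoters of 5 kb on each side, to -0.0079 with predicted transcripts included and to -0.013 in 300 bp, with intervals that reach 0. The CpG-rich difference turned to -0.193 points with promoters of 1 kb on each side, -1.43 over the whole peak and -3.57 in 300 bp. The share with a neighbouring RING1B peak differed by -2.96 points with promoters of 1 kb, past 0, and by 0.072 points with promoters of 5 kb. The share whose nearest gene held RING1B differed by -1.09 points with predicted transcripts, -2.76 without peaks under 500 bp, -2.60 without peaks within 5 kb of SUZ12 and 0.539 points with protein-coding genes alone. The causes were not tested. The E-box difference from intragenic peaks stayed between -1.81 and -0.635 points, and the CpG-rich difference from SUZ12-positive intergenic peaks between -23.5 and -3.29 points. With predicted transcripts counted as genes, 2145 of 2979 members remained members. No paired analysis was possible because peak positions come without any value per replicate. Peak heights and treated cells were not analysed here.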
